A study of Mus musculus with 9 samples.

Results

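The genes described here had a clear array signal in early and intermediate mouse ovarian surface epithelial cells and a signal near the middle of the array or lower in late cells. A gene was taken when a probe set naming it alone read over 500 on all 3 MOSE-E and all 3 MOSE-I arrays and under 200 on all 3 MOSE-L arrays, and each gene was represented by its brightest such probe set. Of 18193 genes with a probe set of their own, 11 met this rule through 14 probe sets: Col1a2, Krt14, Tpm2, Armcx2, 3110039M20Rik, Mmp2, Lpar1, Nectin3, Ddr2, Hoxc10 and Fam149a. The genes were thus chosen by their signals on all 9 arrays, and the difference of MOSE-L from the other stages is described below without a test.

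MOSE cells are surface epithelium of the ovary from C57BL6 mice that transformed without an added oncogene during continued culture. The 3 stages are passages of this 1 cell series: MOSE-E at passages 13, 14 and 15 (labelled non-malignant), MOSE-I at 63, 71 and 73 (intermediate) and MOSE-L at 136, 142 and 143 (malignant), numbered as replicates 1 to 3 of each stage. All were grown in high glucose DMEM with fetal bovine serum, insulin, transferrin, selenite, penicillin and streptomycin, and no stage received a further agent. The cultures were described as heterogeneous, and since all arrays come from 1 series, a p-value here measures the spread between cultures of that series; stage and passage number cannot be told apart.

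On the 9 arrays, scaled by the authors to a trimmed mean of 500, the median signal ran from 93.2 to 130 and 59.8% to 65.6% of probe sets lay under 200, so a signal under 200 was the common state of a probe set and does not mean that no RNA was present. Arrays of the same stage correlated between 0.889 and 0.986. MOSE-L replicate 3 had the largest ratio of the 3′ to the 5′ Actb control probe sets, 1.83 against 1.12 to 1.45 on the others. Of 14 markers of ovarian surface epithelium and mesothelium, 11, 10 and 10 read over 500 on every MOSE-E, MOSE-I and MOSE-L array, and their summed signal ranged from 99353 to 109989, from 66164 to 94612 and from 72988 to 89906 respectively. Of the 13 tested, 5 were called lower in MOSE-I and 6 in MOSE-L than in MOSE-E by limma, and from MOSE-I to MOSE-L 1 was lower and 3 higher. Over all tested probe sets 3.76% were called lower in MOSE-I and 7.37% in MOSE-L than in MOSE-E. From MOSE-I to MOSE-L 5.85% were called lower and 8.05% higher. The part of these markers in the results was not tested. Krt8 and Krt18 stayed above 500 in all stages, Cdh1 averaged 739 in MOSE-E and 52.4 in MOSE-L, and Calb2 was under 200 throughout. Of 6 fibroblast markers, 2 read over 500 on all arrays of each stage, with a summed signal of 20890 to 52874 in MOSE-E cells, 11621 to 39179 in MOSE-I cells and 33165 to 44569 in MOSE-L cells; their part in the results was not tested. None of the 8 leukocyte and 7 endothelial markers read over 500 on all arrays of a stage. The defining Ptprc and Pecam1 averaged at most 39.8 and 59.9. The summed leukocyte signal was 696 to 899 in MOSE-E cells, 720 to 1345 in MOSE-I cells and 1121 to 1185 in MOSE-L cells. Of the leukocyte markers, 6, 6 and 4 were under 200 on every array of the respective stage. Only 1 of them passed 500 on any array, and limma called it neither lower nor higher between stages. The summed endothelial signal by stage was 525 to 618, 316 to 500 and 429 to 490, with 6, 6 and 7 markers under 200. Their part in the results was not tested. Of 6 oocyte markers Ddx4 alone passed 500, averaging 3334, 72.6 and 12.4 by stage; of the granulosa and theca cell markers Star alone did, averaging 35.6, 62.6 and 655.

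Known roles among the 11 genes lie in matrix, cytoskeleton, adhesion, signalling and transcription. Type I collagen is a fibril of the interstitial matrix, Ddr2 is a receptor tyrosine kinase that binds fibrillar collagen, and Mmp2 (gelatinase A) is a secreted protease that cleaves denatured and basement membrane collagen. Krt14 is an intermediate filament protein of basal epithelial cells, Tpm2 (beta-tropomyosin) lies along actin filaments, and Nectin3 is an immunoglobulin-like adhesion protein that joins neighbouring cells. Lpar1 is a G protein-coupled receptor for lysophosphatidic acid, a lipid abundant in serum. Hoxc10 is a homeodomain transcription factor of the posterior body, Armcx2 is an X-linked armadillo repeat protein, and 3110039M20Rik is a long non-coding RNA. The sequence before the start is shown first for the 3 brightest genes and for the 2 genes with the highest and the lowest CpG density.

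The 250 bases before the annotated start (RefSeq, GRCm38.p6) were at hand for 9 of the 11 genes, with 11 starts. Capitals mark every match, on either strand, to TATAAA (the TATA box), CCAAT (the CCAAT box), GGGCGG (the GC box), the CArG box of the serum response factor, CATTCC (the TEAD motif), TGANTCA (the AP-1 motif), GTCTAGAC (the SMAD motif) or CAGCTG (an E box).
Col1a2, chr6:4505368-4505617, plus strand: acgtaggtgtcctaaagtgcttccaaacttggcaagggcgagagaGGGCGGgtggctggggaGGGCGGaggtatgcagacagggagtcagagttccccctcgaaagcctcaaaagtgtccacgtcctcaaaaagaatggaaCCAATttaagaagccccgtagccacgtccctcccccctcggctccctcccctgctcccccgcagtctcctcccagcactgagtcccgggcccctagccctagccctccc
Krt14, chr11:100206031-100206280, minus strand: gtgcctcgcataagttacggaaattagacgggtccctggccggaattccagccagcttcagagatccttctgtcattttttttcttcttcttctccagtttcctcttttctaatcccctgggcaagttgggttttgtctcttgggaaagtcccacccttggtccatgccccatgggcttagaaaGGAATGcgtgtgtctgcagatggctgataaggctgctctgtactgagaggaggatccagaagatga
Tpm2, chr4:43523555-43523804, minus strand: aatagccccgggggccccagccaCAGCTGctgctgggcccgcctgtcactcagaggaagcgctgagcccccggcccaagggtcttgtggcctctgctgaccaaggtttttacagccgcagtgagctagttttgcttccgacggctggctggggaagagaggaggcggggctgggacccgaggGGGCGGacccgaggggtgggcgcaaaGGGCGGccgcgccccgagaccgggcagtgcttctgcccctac
Nectin3, chr16:46496968-46497217, minus strand: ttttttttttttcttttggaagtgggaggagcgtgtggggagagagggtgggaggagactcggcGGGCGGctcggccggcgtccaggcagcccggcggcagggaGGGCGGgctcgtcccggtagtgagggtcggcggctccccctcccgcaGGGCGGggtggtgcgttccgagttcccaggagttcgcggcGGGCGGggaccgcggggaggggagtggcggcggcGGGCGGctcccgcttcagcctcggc
Ddr2, chr1:170088945-170089194, minus strand: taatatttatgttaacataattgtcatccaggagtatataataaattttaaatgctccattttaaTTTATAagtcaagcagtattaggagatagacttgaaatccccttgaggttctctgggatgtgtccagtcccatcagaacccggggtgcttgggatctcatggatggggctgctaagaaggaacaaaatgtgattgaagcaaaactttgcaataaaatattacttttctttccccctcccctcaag

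The promoters had little in common. The ratio of observed to expected CpG ranged from 0.11 at Ddr2, with 1 CpG, to 0.98 at Nectin3, with 30 CpG; the median was 0.34 for the 11 promoters and 0.53 for 21255 promoters of protein-coding genes. The median GC content was 49.6% against 55.6%. GGGCGG occurred 5 times before Nectin3, 2 times each before Col1a2 and Tpm2, and before 2 of the 3 Lpar1 starts; 42.6% of all promoters hold it. CCAAT was present before Col1a2 and 1 Lpar1 start (35.4% of all promoters), and TATAAA before Ddr2, 185 bases from the start, and before 3110039M20Rik, 68 bases from the start (11.6%). CATTCC occurred before Krt14 only (11.7%) and CAGCTG before Tpm2 only (12.1%). None of the 11 promoters held the CArG box (1.39% of all), TGANTCA (6.14%) or GTCTAGAC (0.183%), and no motif was shared by more than 4 of the 9 genes. A match is a run of letters and was not tested as a binding site.

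Col1a2, which encodes the alpha 2 chain of type I collagen, was the brightest of the genes. Its signals were 14485, 32397 and 28950 on the MOSE-E arrays, 4545, 18843 and 14807 on the MOSE-I arrays, and 63.7, 33.8 and 82.2 on the MOSE-L arrays. The MOSE-E and MOSE-I arrays overlapped, whereas the lowest of them lay 55.3-fold above the highest MOSE-L array. Mean signals were 25277 ± 9504 (SD, n = 3) in MOSE-E, 12732 ± 7372 in MOSE-I cells and 59.9 ± 24.4 in MOSE-L, a ratio of 422 between MOSE-E and MOSE-L and of 213 between MOSE-I and MOSE-L. Col1a2 stood at or above the 96.0 percentile of probe sets on every MOSE-E and MOSE-I array and between the 21.4 and 43.9 percentile on the MOSE-L arrays. Another Col1a2 probe set, brighter in MOSE-E (22129 to 45780), read 231, 195 and 277 in MOSE-L and so missed the limit of 200 on 2 arrays. A dimmer one read 333, 935 and 741 in MOSE-E, 54.8, 250 and 74.6 in MOSE-I, and 45.0, 36.4 and 15.9 in MOSE-L. Its log2 change was −2.08 from MOSE-E to MOSE-I and −0.95 from MOSE-I to MOSE-L, so most of its fall came by the intermediate stage. In bulk RNA, fewer cells of a type and less RNA per cell cannot be told apart.

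**Figure D1:**
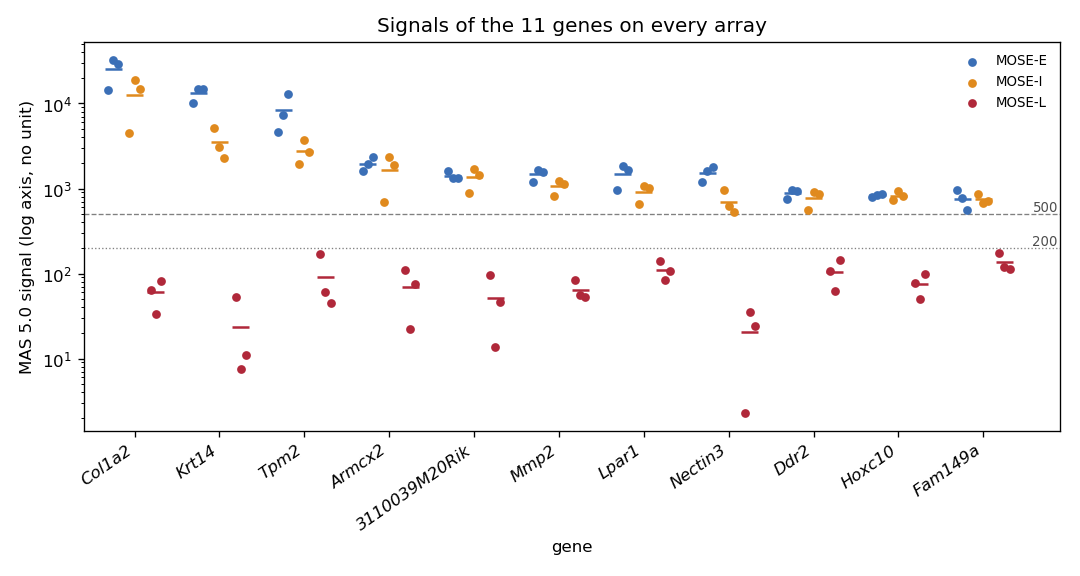
Array signals of the 11 genes (log axis, points are single arrays, short lines the mean of 3 arrays per stage; dashed and dotted lines at 500 and 200). Every MOSE-L point lies under 200 by the rule that chose the genes; among them the values run from 2.27 for Nectin3 to 174 for Fam149a, and the genes' MOSE-E means from 759 to 25277.

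Mmp2 read 1203, 1656 and 1568 in MOSE-E, 806, 1228 and 1140 in MOSE-I, and 83.8, 56.0 and 53.3 in MOSE-L. The MOSE-L arrays lay close together, and the ratio of mean signals was 22.9 from MOSE-E and 16.4 from MOSE-I. A further Mmp2 probe set also met the rule, with MOSE-L signals of 154, 192 and 112. Ddr2 read 746, 966 and 947 in MOSE-E, 556, 905 and 853 in MOSE-I, and 106, 63.1 and 146 in MOSE-L. It was among the genes nearest to both thresholds, with ratios of 8.45 and 7.35. Its other probe set was brighter and read 110, 167 and 509 in MOSE-L against 851 to 2155 in the earlier stages, so that MOSE-L replicate 3 alone stood apart from the pattern there.

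Krt14 had signals of 10167, 14910 and 14783 in MOSE-E, 5140, 3088 and 2277 in MOSE-I, and 52.5, 7.60 and 10.9 in MOSE-L. The 3 stages did not overlap, and the ratio of mean signals from MOSE-E to MOSE-L was 562, over late signals as uneven as their mean (23.6 ± 25.0, SD, n = 3). The probe set counted is of a type that can also bind related transcripts. A second Krt14 probe set without that mark gave the same order, at 8873 to 11415, 1981 to 3917 and 5.76 to 17.1 in the 3 stages. Krt5, the usual filament partner of Krt14 in basal epithelium, was under 500 on every array, at 49.9 to 89.6 in MOSE-E and 109 to 179 in MOSE-L.

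Tpm2 read 4624, 7418 and 12837 in MOSE-E, 1939, 3714 and 2718 in MOSE-I, and 168, 59.9 and 45.5 in MOSE-L. The stages did not overlap. MOSE-L replicate 1 gave the highest late signal, and the ratio of means from MOSE-E to MOSE-L was 90.9. A brighter Tpm2 probe set read 217, 165 and 247 in MOSE-L after 6800 to 18989 in MOSE-E and 3465 to 6638 in MOSE-I. Nectin3 read 1192, 1623 and 1803 in MOSE-E, 962, 618 and 528 in MOSE-I, and 2.27, 35.1 and 23.9 in MOSE-L. The late mean was 20.4 ± 16.7 (SD, n = 3), with a ratio of 75.4 from MOSE-E and 34.4 from MOSE-I. A second Nectin3 probe set met the rule as well, at 1071 to 1398, 518 to 735 and 3.49 to 57.3. Another, at 557 to 601 in MOSE-E, was under 500 in MOSE-I already (376, 253 and 246) and read 5.94 to 59.3 in MOSE-L.

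Lpar1 read 972, 1864 and 1633 in MOSE-E, 652, 1064 and 1017 in MOSE-I, and 142, 84.9 and 106 in MOSE-L. The first array of MOSE-E and of MOSE-I was the lowest of its stage, and the ratio of means was 13.4 from MOSE-E and 8.21 from MOSE-I. Hoxc10 read 804, 833 and 867 in MOSE-E, 725, 933 and 824 in MOSE-I, and 77.7, 49.7 and 98.8 in MOSE-L. The MOSE-E and MOSE-I means were nearly the same, 835 ± 31.7 and 827 ± 104 (SD, n = 3), against 75.4 ± 24.7 in MOSE-L.

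Armcx2 read 1589, 1918 and 2343 in MOSE-E, 695, 2329 and 1867 in MOSE-I, and 109, 22.6 and 75.2 in MOSE-L. MOSE-I replicate 1 lay well below the other 5 early and intermediate arrays. Its probe sets differed in the late cells: a brighter one read 7509 to 12075 in MOSE-E cells, 3050 to 9221 in MOSE-I cells and 274, 128 and 223 in MOSE-L, while one more read 877 to 1361, 531 to 1540 and 553, 469 and 465. The non-coding 3110039M20Rik read 1586, 1345 and 1325 in MOSE-E, 883, 1712 and 1446 in MOSE-I, and 95.9, 13.5 and 46.4 in MOSE-L. Its early and intermediate arrays overlapped, and the ratio of means was 27.3 from MOSE-E and 25.9 from MOSE-I. Fam149a read 950, 772 and 555 in MOSE-E, 864, 680 and 720 in MOSE-I, and 174, 119 and 113 in MOSE-L. It had the narrowest gap, 3.20-fold between its lowest earlier and its highest late array.

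Across the genes, 11 of the 33 MOSE-L signals lay under 50 and 26 under the median of their array. For 6 genes all 3 late arrays were under that median. MOSE-L replicate 2, the array with the highest median signal, was the lowest of the late arrays for 7 genes and for 27.4% of all tested probe sets. Of 30 probe sets naming one of the genes, 16 missed the rule; 6 of these were under 500 on every array, and the other 10 all had a lower mean in MOSE-L than in MOSE-E and in MOSE-I. Only Hoxc10 and 3110039M20Rik were read by a single probe set.

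**Figure D2:**
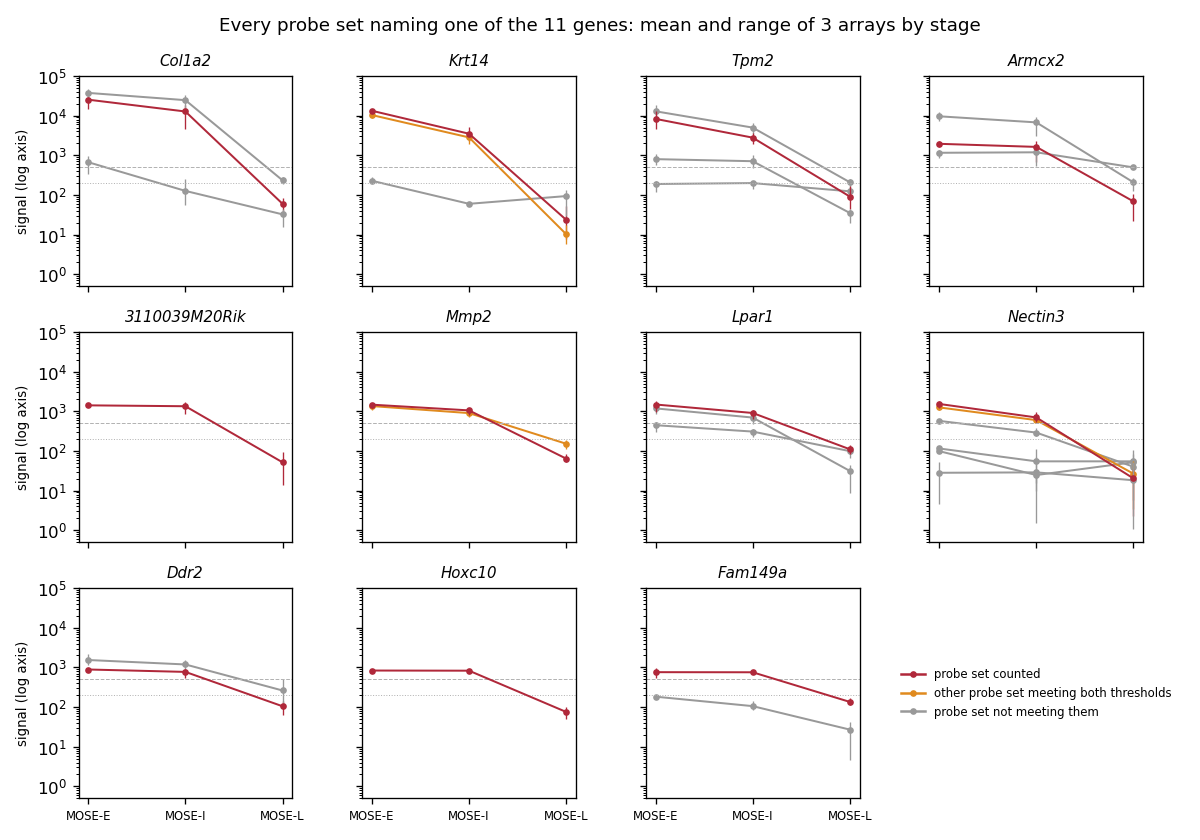
Mean signal (log axis; vertical lines give the range of 3 arrays) by stage for all 30 probe sets naming one of the 11 genes. Red lines are the probe sets counted, orange lines 3 more that met both thresholds, and grey lines the 16 that did not; of the grey lines that reach 500, the Armcx2 probe set at 465 to 553 in MOSE-L stays highest.

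The rule asked for the same floor of 500 in MOSE-E and MOSE-I and did not use the difference between them. That difference was tested with limma, adjusted by Benjamini-Hochberg over 13845 probe sets. A call needed an adjusted p no higher than 0.05 together with a log2 change of at least 1. The floor limits how far a gene can fall in MOSE-I. From MOSE-E means of 886 (Ddr2), 835 (Hoxc10) and 759 (Fam149a), a log2 fall of 1 would end under 500. For these genes a call of lower was therefore not possible. Mean signal was lower in MOSE-I than in MOSE-E for all 11 genes, though Hoxc10 and Fam149a were nearly level (ratios of means 0.991 and 0.994). Of the 11, 3 were called lower: Krt14, Tpm2 and Nectin3. None was called higher by limma or by the methods' t-test. At an unadjusted p of at most 0.05 in the limma fit, 5 were lower and 0 higher. The share of all probe sets at that unadjusted p was not counted. Over all tested probe sets 3.76% were called lower and 1.97% higher, and over the 8462 that read above 500 on every MOSE-E and MOSE-I array 2.14% and 1.55%. The median log2 change of the 11 genes was −0.47, beside 0.01 over all tested probe sets and 0.07 over those 8462. For Krt14 the lower signal was therefore not confined to late cells: it was already lower at the intermediate stage, although still above 500. The calls of Tpm2 and Nectin3 pointed the same way but depended on single arrays. Tpm2 also differed by probe set. The brighter one had a log2 change of −1.29 from MOSE-E to MOSE-I. Another, at 564 to 1084 in MOSE-E and 468 to 1002 in MOSE-I, had one of −0.18.

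Krt14 fell by 1.97 (log2 change, SE 0.32, n = 3 per stage, limma adjusted p = 0.00742), and its call was kept with each array left out in turn (adjusted p 0.00455 to 0.0498). Tpm2 fell by 1.48 (SE 0.40, adjusted p = 0.0443) and Nectin3 by 1.10 (SE 0.29, adjusted p = 0.0379). The Tpm2 call was lost without MOSE-E replicate 2 (adjusted p = 0.149) or 3 (0.176), without MOSE-I replicate 1 (0.102), 2 (0.0660) or 3 (0.132), and without MOSE-L replicate 2 (0.0546). The Nectin3 call was lost without MOSE-E replicate 2 (0.173) or 3 (0.179) and without MOSE-I replicate 2 (0.115) or 3 (0.155).

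Col1a2 had a change of similar size, −1.14, but its arrays were more variable (SE 0.48, adjusted p = 0.142). The changes of Lpar1 (−0.66, SE 0.28, adjusted p = 0.139) and Mmp2 (−0.47, SE 0.22, adjusted p = 0.180) did not pass either. Those of Armcx2 (−0.39), Ddr2 (−0.21), 3110039M20Rik (−0.12), Hoxc10 (−0.02) and Fam149a (0.02) were smaller than their SE, which ran from 0.21 to 0.41. The MOSE-E and MOSE-I arrays overlapped for 8 genes and not for 3, beside 41.5% of all tested probe sets, and 41.6% of the 8462, without overlap. MOSE-I replicate 1, at passage 63, was the lowest of its stage for 8 of the 11 genes and for 42.5% of all tested probe sets. MOSE-E replicate 1 was the lowest for 9 genes and for 37.9% of all tested probe sets. Whether these cultures differ in makeup was not tested.

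**Figure D3:**
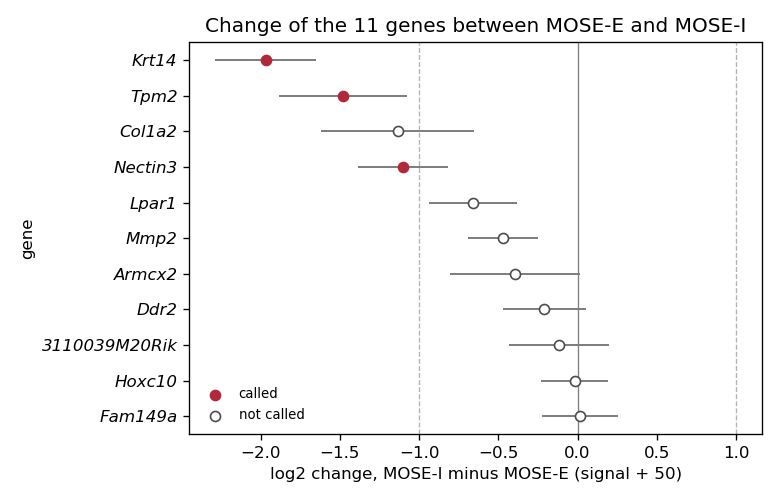
Log2 change from MOSE-E to MOSE-I of log2(signal + 50) for the 11 genes; bars are the SE of the limma fit to all 9 arrays, filled points were called and dashed lines mark a log2 change of 1 in either direction. Krt14 (−1.97), Tpm2 (−1.48) and Nectin3 (−1.10) were called, while Col1a2 at −1.14 was not.

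The difference from late cells, which chose the genes, had a median log2 change of −3.93 from MOSE-E and −3.40 from MOSE-I and ran from −7.79 (Col1a2) to −2.11 (Fam149a) against MOSE-E. In the whole data set 7.37% of tested probe sets were called lower and 7.63% higher in MOSE-L than in MOSE-E, and 5.85% lower and 8.05% higher than in MOSE-I. Few genes reached so low a late signal from so high a start: 5215 genes read over 500 on all MOSE-E and MOSE-I arrays, and 4735 read over 500 on all 9. By the same thresholds 12 genes were over 500 in MOSE-E and already under 200 in MOSE-I and MOSE-L, and 30 were over 500 in MOSE-L only. Another probe set that met the rule named no gene.

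The limits were close for several genes. Just inside 500 were Nectin3 (lowest earlier array 528), Fam149a (555) and Ddr2 (556), and just inside 200 were Fam149a (highest late array 174), Tpm2 (168) and Ddr2 (146). Dse, an enzyme that forms dermatan sulfate, was left out because MOSE-I replicate 1 read 496, with late signals of at most 85.5. The metalloprotease Adam12 was left out by MOSE-E replicate 1 at 495 and the adaptor Sh3kbp1 by MOSE-I replicate 2 at 494. On the other side the homeobox gene Hoxa9 was left out by a late array at 213 after 1432 to 2731 in the earlier stages, Haus8, of the spindle augmin complex, by 226, and Wtip by 237.

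The genes' pathways were then read from lists of genes outside the 11, each gene by its brightest tested probe set. Among 31 further contractile genes and targets of the serum response factor, 20 were called lower in MOSE-L than in MOSE-E and none higher in limma or the methods' t-test, with 2 higher at an unadjusted p of at most 0.05 (64.5% lower, beside 7.49% of 7952 genes called lower and 8.11% higher). The 20 became 2 with the methods' t-test after adjustment. From MOSE-E to MOSE-I 9 were called lower, and from MOSE-I to MOSE-L 7 were called lower and 1 higher. Tagln (transgelin) fell by 7.72 on the log2 scale (adjusted p = 0.000182), and smooth muscle actin Acta2 fell by 5.70 (adjusted p = 0.000105). Tgfb1i1 (Hic-5) had a log2 change of −4.81 and the myosin light chain Myl9 one of −3.93. Acta2 kept a signal of 323 to 1515 in MOSE-L. The Tpm2 paralogue Tpm4 fell by 1.25 (SE 0.24, adjusted p = 0.00449), whereas Tpm1 and Tpm3 changed by −0.89 and −0.91, under the minimum fold, and kept mean late signals of 12278 and 8579.

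Among 24 further genes for collagens and collagen processing, 6 were called lower and 1, Pcolce (named after its value was seen), higher in MOSE-L than in MOSE-E. The 6 became 0 with the methods' t-test after adjustment, and the 1 became 0 without MOSE-E replicate 1 or MOSE-L replicate 2 and 2 without MOSE-E replicate 3 or MOSE-L replicate 1. From MOSE-E to MOSE-I 6 were called lower, and from MOSE-I to MOSE-L 2 lower and 2 higher. Col11a1 and Col8a1 fell by 4.85 and 4.83, and both were already at 63.0 and 113 on average in MOSE-I. Col1a1, the other chain of type I collagen, fell by 2.54 (SE 0.40, adjusted p = 0.00172). Its signals were 9034, 29046 and 26891 in MOSE-E, 4645, 7752 and 6086 in MOSE-I, and 2396, 3657 and 3937 in MOSE-L, so that it stayed above 500 on all late arrays where Col1a2 did not. Col5a2 fell by 1.72. Among 18 further matrix proteases and inhibitors 5 were called lower and 4 higher, and from MOSE-I to MOSE-L 2 lower and 6 higher. Mmp14, the membrane protease that activates the Mmp2 proenzyme, fell by 3.01 (SE 0.28, adjusted p = 7.78e-05) and kept 2187 to 2736 in MOSE-L, and Adamts5 fell by 2.84, whereas Adamts9 rose by 3.16 and Mmp11 by 2.34. The count of 5 lower became 3 without MOSE-E replicate 2 or 3 or without MOSE-L replicate 1 or 2. With the methods' t-test after adjustment the 5 lower became 0 and the 4 higher became 1.

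Of 11 further integrins and collagen receptors 2 were called lower, Itga7 (log2 change −2.49) and Cd44 (−1.38), and 2 higher, Itgb8 (2.19) and Itgb5 (1.36). Both counts of 2 became 0 with the methods' t-test after adjustment. Ddr1, the other discoidin domain receptor, had a log2 change of 0.06 (SE 0.38, limma adjusted p = 0.920) with late signals of 14766 to 19151. The remaining 12 lists held none of the 11 genes, and over all 16 lists 89 of 344 further genes were called lower (25.9%) and 51 higher between MOSE-E and MOSE-L. By step, 69 were called lower and 14 higher from MOSE-E to MOSE-I, and 46 lower and 62 higher from MOSE-I to MOSE-L. Over all tested probe sets 3.76% were called lower and 1.97% higher from MOSE-E to MOSE-I, and 5.85% lower and 8.05% higher from MOSE-I to MOSE-L. The comparisons share arrays. The lists were drawn up with earlier results of these data known.

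**Figure D4:**
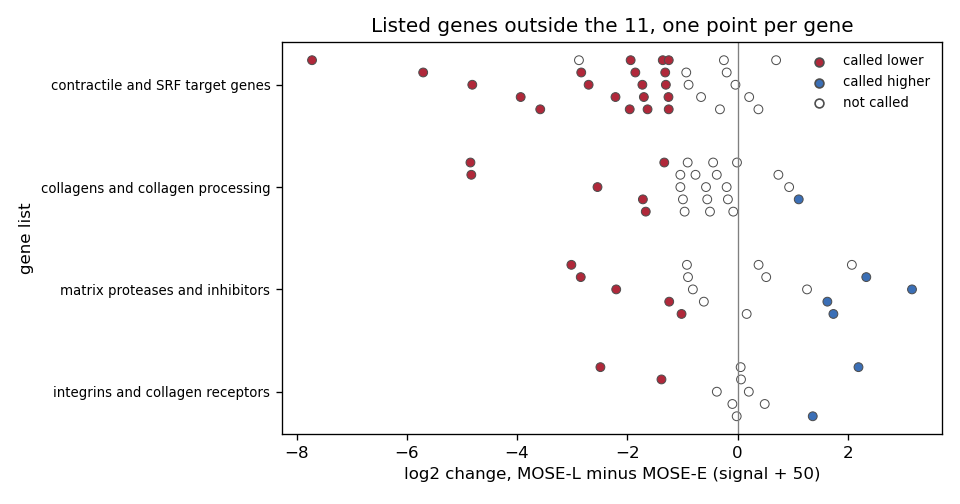
Log2 change from MOSE-E to MOSE-L of log2(signal + 50) for genes outside the 11 in the 4 lists that hold one of them (1 point per gene, vertical spread within a list only for legibility). In the contractile list 20 of 31 genes were called lower and none higher; the other lists hold calls in both directions.

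Relatives by name followed the 11 genes in some families only. Among 7 further keratins tested, Krt7 fell by 4.28 between MOSE-E and MOSE-L (SE 0.46, limma adjusted p = 0.000182), Krt8 by 1.47 and Krt19 by 1.11, while Krt18, Krt10, Krt42 and Krt81 were not called. Krt7 was already called lower in MOSE-I (log2 change −3.56), at 75.8, 545 and 260. The Krt19 call was lost without MOSE-E replicate 1 or 2 or MOSE-L replicate 2 (log2 change −0.91, −1.06 and −0.84). Nectin2 was called higher by 1.25 (limma adjusted p = 0.0317), whereas Nectin3 averaged 20.4 in MOSE-L. The late Nectin2 signals of 2157, 1459 and 4557 were uneven. Its call was lost with any MOSE-E array left out (limma adjusted p 0.0585 to 0.0951) or MOSE-L replicate 3 (0.0756). The other lysophosphatidic acid receptor tested, Lpar6, changed by −0.55 (adjusted p = 0.0644) and was not called.

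Of the Armcx genes, which lie together on the X chromosome, 2 more were called lower in late cells. Armcx3 fell by 2.80 between MOSE-E and MOSE-L (SE 0.21, adjusted p = 1.30e-05) and Armcx1 by 2.41 (SE 0.32, adjusted p = 0.000649). Armcx3 read 2094, 2065 and 2270 in MOSE-E, 1319, 1994 and 1245 in MOSE-I, and 300.1, 217 and 280 in MOSE-L, its late signals just over the limit of 200. Armcx1 was below 500 on all earlier arrays but MOSE-E replicate 1 and read 46.8, 45.3 and 45.9 in MOSE-L. Bhlhb9, the next tested gene beyond Armcx2, fell by 1.23 (adjusted p = 0.0181), a call lost without MOSE-E replicate 1 or MOSE-L replicate 3.

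The 11 genes lay on 9 chromosomes, with at most 2 on any of them. The nearest tested gene on each side gave 22 neighbours, not all directly adjacent and up to 4315 kb away (Stxbp6). Between MOSE-L and MOSE-E 5 were called lower, 3 higher and 14 not called, with a median log2 change of −0.17. Over 7952 genes 7.49% were called lower and 8.11% higher. Krt19, Armcx3 and Hoxc8, among the 5, are also relatives by name. Bet1 and Casd1 beside Col1a2, Tln1 beside Tpm2 and Lpcat2 beside Mmp2, which starts 1.89 kb away, were not called. Lpcat2 missed by the minimum fold only (log2 change −0.91, limma adjusted p = 0.00405). From MOSE-E to MOSE-I, Tln1 (−2.01) and Lpcat2 (−1.44) were called lower. Beside Ddr2, Hsd17b7 lay 3.07 kb away and was called higher by 1.27 (SE 0.27, adjusted p = 0.00791), a call lost without MOSE-L replicate 2, where the change was 0.96. Calcoco1, 245 kb from Hoxc10, was called higher by 1.25 (SE 0.35, adjusted p = 0.0247), a call lost without MOSE-E replicate 2 (adjusted p = 0.0862) or 3 (0.0638) or MOSE-L replicate 3 (0.0623). Prkd1, a protein kinase 934 kb from 3110039M20Rik, fell by 3.77 and was already at 572, 102 and 142 in MOSE-I. In the Hoxc cluster, Hoxc8 fell by 2.69 (adjusted p = 0.00133) to 20.1, 73.3 and 76.4; it was already called lower in MOSE-I (log2 change −1.73, adjusted p = 0.0283), at 90.7, 245 and 147, and its change from MOSE-I to MOSE-L was not called (−0.97, adjusted p = 0.0956). Hoxc9 was under 500 on every array, at 223 to 434 in MOSE-E and 207 to 394 in MOSE-L. Sorbs2, 125 kb from Fam149a, went the opposite way: it read 35.6, 13.1 and 33.5 in MOSE-E, 40.1, 11.5 and 47.7 in MOSE-I, and 1898, 2972 and 1676 in MOSE-L, and was called higher by 4.82 (SE 0.35, adjusted p = 1.30e-05).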

How the data were processed

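RNA of 9 MOSE cultures, 3 per stage, was hybridised to Affymetrix Mouse Genome 430 2.0 arrays. The authors made the deposited intensities with MAS 5.0, a linear signal for each probe set, with every array brought to 500 as its trimmed mean; detection calls were not used here. Of 45101 probe sets, 64 controls were left out; 34945 named 1 gene, 932 several and 9160 none, and 34741 matched a GRCm38.p6 gene table. The 11 genes, the gene lists and the tests were chosen with earlier results of these data known.

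Signals over 500 on at least 1 array left 13845 probe sets (7952 genes). The log2 of the signal plus 50 was fitted in limma 3.58.1 (R 4.3.3) with 1 mean per stage and variances that follow the mean; a fold on this scale understates changes of low signals. The step was tested on simulated data. Benjamini-Hochberg adjustment covered all probe sets. All 11 genes passed the filter, which they had to. Of each list that holds one of them, the 4 called genes with the largest change were named; no list held 2, so these lists were described after that was seen. Relatives by name and neighbours were chosen once the 11 were known; relatives and neighbours that were called, and those that others are set against, are named. The number of arrays limits the precision.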

Additional observations from a re-analysis of the deposited data

How the results depend on the processing

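Leaving out 1 array can only loosen the rule, so all 11 genes are then kept by construction. The rule gave 11 to 23 genes with 1 array left out (23 without MOSE-I replicate 1). The number of genes depended on the limits: 42 over 300 and 3 over 1000 in the earlier stages, 6 under 100 and 25 under 300 in MOSE-L, 47 on stage means, 17 with arrays scaled to a common median, 14 after quantile normalization, and 5 when every probe set of the gene that reached 500 had to pass. The count of 3 genes called lower in MOSE-I became 0 with an added value of 1 and with the methods' t-test after adjustment, and 1 without a filter, at an adjusted p of 0.01 and with the replicate block; leaving out 1 array gave 1 to 3, with 1 when replicate 2 or 3 of MOSE-E or of MOSE-I was left out. None was called higher under any alternative run. Of further pathway genes, the 89 called lower became 11 with the methods' t-test after adjustment, and 66 to 99 with 1 array left out; the 51 called higher became 33 over a signal of 1000, 31 at an adjusted p of 0.01, 9 with that t-test, and 39 to 54 with 1 array left out. The change from MOSE-E to MOSE-I turned sign for 4 genes. In the main fit it was −0.02 for Hoxc10, 0.02 for Fam149a, −0.12 for 3110039M20Rik and −0.39 for Armcx2. Hoxc10 was at 0.0197 after quantile normalization, at 0.00903 with median centring and between −0.10 and 0.0676 with 1 array left out. Fam149a was at −0.00834 with the methods' t-test, adjusted or not, and between −0.18 and 0.18 with 1 array left out. Leaving out 1 array gave −0.73 to 0.11 for Armcx2 and −0.31 to 0.15 for 3110039M20Rik, positive for both only with MOSE-I replicate 1 left out. The causes were not tested. Of 871 values of 40 named genes under alternatives, 786 kept direction and side of the threshold, 75 kept direction only and 10 turned sign. Stages share replicate numbers in the labels. Deviations of same-numbered arrays correlated between −0.113 and 0.410, over 0.1 in 2 of 9 pairs. These were MOSE-E with MOSE-L at replicate 1 (0.410) and at replicate 2 (0.262). Between differently numbered arrays of 2 stages the values ran from −0.493 (MOSE-E replicate 2 with MOSE-L replicate 1) to 0.241. Whether same-numbered arrays have more in common than the number was not tested. With the replicate block the count of 3 became 1, with Krt14 remaining.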

Other observations

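With MOSE-I replicate 1 left out, 12 genes joined the 11: Tagln, Tgfb1i1, Sgce, Mgll, Gpr176, Ddc, Hspb2, Papss2, Dse, Slc24a3, Vegfd and Glipr2. They were found after their values were seen and are given as a description. On that array they read 97.0 (Sgce) to 496 (Dse), under the limit of 500. Sgce, the epsilon-sarcoglycan gene, read 1256, 1914 and 1897 in MOSE-E, 97.0, 2422 and 1786 in MOSE-I, and 10.9, 82.7 and 27.7 in MOSE-L. Ddc, which encodes the enzyme that forms dopamine and serotonin, read 1255, 864 and 948 in MOSE-E, 211, 2699 and 2076 in MOSE-I, and 92.9, 67.4 and 19.1 in MOSE-L. In both, MOSE-I replicate 1 lay apart from the other MOSE-I arrays, which were within or above the MOSE-E range. Tagln read 290, 5033 and 1917 in MOSE-I, after 8582 to 32355 in MOSE-E, and 6.59 to 111 in MOSE-L. The lymphangiogenic growth factor Vegfd read 449, 666 and 582 in MOSE-I and 105, 176 and 112 in MOSE-L.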
